A study of Mus musculus with 8 samples.

Results

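The genes described here are those of the creatine kinase system and the purine nucleotide cycle in mouse skeletal muscle: Ckm, Ckmt2, Ckb, Slc6a8, Gamt, Ampd1, Ampd2, Ampd3, Adsl and Ak1. They were taken as every non-control array probe whose transcript accession maps to one of these symbols, which gave 13 probes for 10 genes, of 55681 probes and 20145 named genes in all. Extensor digitorum longus (EDL), a fast hindlimb muscle, was taken from 4 wildtype (WT) and 4 PCKO male C57BL/6 mice. PCKO stands for an inducible, skeletal muscle-specific knockout of the acetyltransferases p300 and CBP, given as such in the treatment description, while the genotype field of the same mice names CBP alone. Tamoxifen was gavaged over 5 days in mice aged 13 to 15 weeks at the start, and muscle was taken a day after the last dose, following a fast of 4 h. The description ties tamoxifen to the PCKO mice, and the sources used here do not give whether WT mice received it, carried floxed alleles or carried Cre, or which promoter drives Cre. Each group thus holds whole muscles of 4 separate mice. Cy3-labelled RNA was read on single-colour Agilent arrays, and each level below is a log2 intensity relative to the 75th percentile of its own array, so that 0 is the 75th percentile and 1 unit is a 2-fold step.

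Creatine kinases move a phosphate group between ATP and creatine, which lets a contracting fibre refill ATP from phosphocreatine at once. The muscle cytosolic form (Ckm) works at the myofibrils, the sarcomeric mitochondrial form (Ckmt2) charges creatine at the mitochondrion, and the brain form (Ckb) is the cytosolic paralogue of most other tissues. Creatine is made from guanidinoacetate by Gamt, largely outside muscle, and enters fibres through the transporter Slc6a8. When ATP use outruns supply, adenylate kinase (Ak1) joins ADP molecules into ATP and AMP, and AMP deaminase turns AMP into IMP. IMP returns to AMP through adenylosuccinate synthetase and adenylosuccinate lyase (Adsl), releasing fumarate, which closes the purine nucleotide cycle. Ampd1 is the deaminase of skeletal muscle, whereas Ampd2 and Ampd3 predominate in other tissues and in red blood cells.

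In all, 8 of the 10 genes were lower in PCKO muscle, 1 was higher (Ampd2) and 1 did not pass the test (Ampd3), by limma with Benjamini-Hochberg adjustment at a threshold of 0.05 and taking each gene at its brightest probe. The background to this count is wide: 69.5% of 12739 named genes were called, 32.1% lower and 37.3% higher. Of the 10 genes, 7 were both called and at least 2-fold lower and 0 at least 2-fold higher, against 14.1% and 11.5% of all named genes. The values of WT and PCKO mice did not overlap for 8 genes, 7 lower and 1 higher, against 65.8% of all named genes, 29.8% lower and 35.9% higher. The median difference over the 10 genes was -1.99 log2 units, against 0.05 over all named genes. By probe, 10 of 13 were lower, 1 higher and 2 not called, where 65.1% of 24872 tested probes were called, 31.5% lower and 33.5% higher. Every probe of these genes was well above background on all 8 arrays except that of Ampd3. With spike-in centring, described below, 6 of the 10 genes were lower (Ckm, Ckmt2, Gamt, Ampd1, Adsl and Ak1) and 2 higher (Ampd2 and Ampd3). Of all 12739 named genes, 1197 (9.4%) were lower and 6817, the majority, were higher under that centring.

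**Figure D1:**
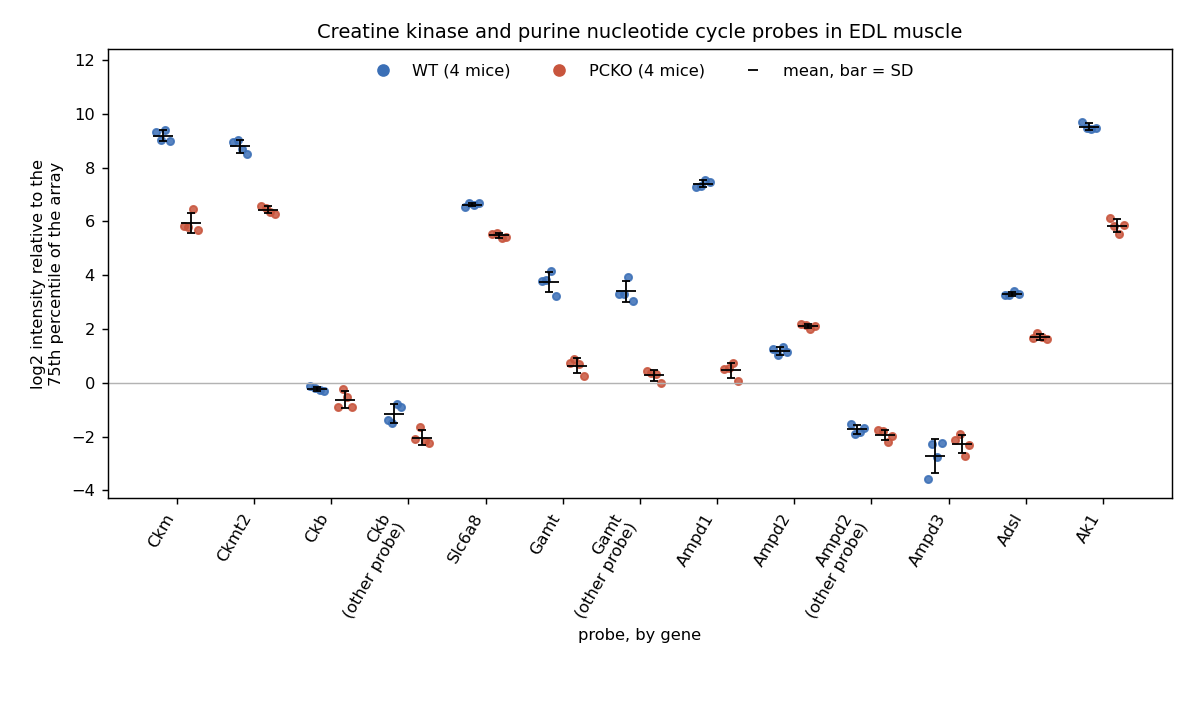
The plot gives the level of each of the 13 probes in each mouse, as log2 intensity relative to the array's 75th percentile, with WT mice in blue, PCKO mice in red and black marks for mean and SD of 4 mice. Heights are to be compared between groups within a probe, not between probes. Ampd1 stands at a mean of 7.40 in WT and 0.47 in PCKO, Ampd2 rises at its brightest probe, and Ampd3 and the other Ampd2 probe overlap between groups.

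Some facts of the whole experiment bear on every value below. On each array 43.5% to 46.1% of probes were well above background, no spot was saturated, and arrays correlated at 0.988 to 0.991 within groups and at 0.916 to 0.93 between groups. The probe for Ep300 (p300) read -0.06 to 0.35 in WT and -1.43 to -1.10 in PCKO (-1.45 ± 0.11, SE, adjusted p = 1.1e-05), and that for Crebbp (CBP) read 4.13 to 4.61 and 3.58 to 3.74 (-0.71 ± 0.11, SE, adjusted p = 0.00059), by limma. The Crebbp call was lost when arrays were centred on spike-in probes (-0.02, adjusted p = 0.95) or corrected by normexp (-0.41, adjusted p = 0.055), and where both probes lie relative to the deleted exons is not known. Relative to 7 probes for RNA spiked into each labelling, the 75th percentile itself lay at -2.79 ± 0.35 in PCKO and at -3.47 ± 0.30 in WT (SD, n = 4), a gap of 0.68 log2 units with p = 0.029 by a two-sided exact permutation test, below which 4 against 4 mice cannot go. Centring on these probes moved the median of all genes from 0.05 to 0.73 and left 1197 genes lower and 6817 higher, 85.1% of calls higher against 53.7%. Differences are therefore relative to other genes. The spike-in offset of an array is shared by all its probes, and limma p-values under this centring mostly followed the size of the difference. Ampd1 had an adjusted p of 1.8e-40 at -6.24, against 1.6e-08 at -6.93 in the main fit. Ampd3 had 0.0013 at 1.12, against 0.24 at 0.44. Calls under this centring therefore say little about the spread of a single probe. All 8 skeletal fibre markers were well above background on all arrays and all 8 fell, from -4.43 (Mylpf) to -0.64 (Tnni2), their summed level being 4900 to 5850 in WT and 2100 to 2510 in PCKO, where 1 is the array's 75th percentile. In whole muscle, fewer cells of a type and less RNA per cell cannot be told apart. Markers of smooth muscle and pericytes (6 of 6 lower), endothelium (6 of 6), fibroblasts (6 of 6) and macrophages (4 of 5 tested) also fell. All marker values here, those of fibres included, are relative to the 75th percentile and were not centred on spike-in probes. Such centring would raise each difference by the gap of 0.68, about the size of the fall of Tnni2. Satellite cell markers were 3 lower and 1 higher of 5 tested, with sums of 3.63 to 4.33 in WT and 3.51 to 4.32 in PCKO and Myf5 not well above background on any array. Of 5 tested fat cell markers 1 was lower, with sums of 260 to 341 in WT and 142 to 215 in PCKO. The part of these shifts in the results on single genes was not tested.

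The creatine kinases are shown first with the DNA before their start sites, because all 3 paralogues were measured on every array. The windows are RefSeq's, on the mouse build GRCm38.p6, each of 300 bases that end a short way past the annotated start, read 5′ to 3′ on the gene's strand: Ckm at chr7:19410844-19411143 (+ strand), Ckmt2 at chr13:91876836-91877135 (- strand), Ckb at chr12:111672289-111672588 (- strand). Capitals mark matches, on either strand, to the E-box CANNTG bound by myogenic factors, the MCAT element CATTCC, the CRE core TGACG, the MEF2 motif and the CArG box.
Ckm: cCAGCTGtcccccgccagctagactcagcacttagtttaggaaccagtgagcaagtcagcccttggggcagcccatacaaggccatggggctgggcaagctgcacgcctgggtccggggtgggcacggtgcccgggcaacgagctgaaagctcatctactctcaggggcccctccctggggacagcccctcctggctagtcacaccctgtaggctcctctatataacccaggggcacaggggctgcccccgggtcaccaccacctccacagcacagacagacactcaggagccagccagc
Ckmt2: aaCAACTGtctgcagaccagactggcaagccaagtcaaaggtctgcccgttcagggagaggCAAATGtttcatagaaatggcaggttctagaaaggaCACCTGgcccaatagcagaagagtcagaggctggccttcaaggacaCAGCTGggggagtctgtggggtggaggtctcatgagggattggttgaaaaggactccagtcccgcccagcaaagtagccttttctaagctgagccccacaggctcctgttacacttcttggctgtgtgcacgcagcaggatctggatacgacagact
Ckb: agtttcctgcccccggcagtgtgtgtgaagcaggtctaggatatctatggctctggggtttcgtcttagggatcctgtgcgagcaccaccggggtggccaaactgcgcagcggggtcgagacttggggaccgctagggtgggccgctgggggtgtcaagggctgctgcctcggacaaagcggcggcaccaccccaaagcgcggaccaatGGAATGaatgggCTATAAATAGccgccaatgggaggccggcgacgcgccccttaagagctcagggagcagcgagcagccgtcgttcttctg
The Ckm window holds 1 E-box, at its base 2, and the Ckmt2 window holds 4, at bases 3, 62, 98 and 144. The Ckb window holds no E-box, 1 MCAT element at base 210 and 1 MEF2 motif at base 222. Of all 32851 RefSeq windows of this length, 72.3% hold an E-box, 14.7% an MCAT element, 20.8% the CRE core, 3.19% the MEF2 motif and 1.63% the CArG box. A match is a description of the letters and not evidence of binding. Windows were found for 8 of the 10 genes.

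Ckm, the muscle cytosolic creatine kinase, was lower in every PCKO mouse by more than the spread of either group. The WT mice read 9.31, 9.02, 9.41 and 8.98 and the PCKO mice 5.82, 5.79, 6.47 and 5.67. The groups did not overlap, and PCKO replicate 3 was the highest of its group. The difference was -3.24 ± 0.19 log2 units (SE, 95% interval -3.67 to -2.82), 9.48-fold lower, with an adjusted p of 1.7e-06 by limma. This placed Ckm at rank 245 from the lowest of 12739 genes.

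Ckmt2, which charges creatine at the muscle mitochondrion, read 8.95, 9.03, 8.69 and 8.49 in WT and 6.57, 6.50, 6.34 and 6.29 in PCKO. The groups were apart, with a mean of 8.79 ± 0.24 in WT and of 6.42 ± 0.13 in PCKO (SD, n = 4). It was 5.16-fold lower (-2.37 ± 0.13, SE, 95% interval -2.67 to -2.06, adjusted p = 1.5e-06). Ckmt2 ranked 452 from the lowest.

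Ckb, the brain-type cytosolic form, moved far less, and its call is fragile. At the brighter of its probes the WT mice read -0.13, -0.19, -0.26 and -0.32 and the PCKO mice -0.89, -0.22, -0.52 and -0.89. PCKO replicate 2 lay among the WT mice, so the groups overlapped, and the PCKO spread (SD 0.32) was larger than that in WT (0.08). The difference of -0.41 ± 0.15 (SE, 95% interval -0.76 to -0.05, 1.33-fold lower) passed narrowly, with an adjusted p of 0.045. The call was lost in 14 of 25 alternative settings, among them 7 of the 8 fits that leave out a mouse (adjusted p from 0.059 to 0.11) and spike-in centring, where the sign turned (0.28, adjusted p = 0.43). Its other probe read -1.40, -1.51, -0.81 and -0.89 in WT and -2.09, -1.64, -2.17 and -2.24 in PCKO, with no overlap. There the difference was -0.88 ± 0.20 (SE, adjusted p = 0.0042), 1.85-fold lower. That call was lost when centred on spike-in probes (-0.20, adjusted p = 0.57) and in slide row 1 alone, with 2 mice a group (-0.41, adjusted p = 0.16). Markers of cells other than fibres that can hold Ckb moved as follows: the smooth muscle and pericyte sum was 88.8 to 115 in WT and 44.7 to 61.9 in PCKO, and the nerve and Schwann cell sum 13.6 to 20.1 and 9.04 to 21.4. Their part in the Ckb difference was not tested.

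The log2 ratio of paralogue probes within an array is not changed by adding a constant to that array, as the percentile, median and spike-in scalings do, and 6 such ratios were compared. From WT to PCKO the Ckb to Ckm ratio rose by 2.84 log2 units, or 7.15-fold (SD 0.20 in WT and 0.41 in PCKO, n = 4, two-sided exact permutation test, p = 0.029, adjusted p = 0.043 over the 6 ratios). The Ckb to Ckmt2 ratio rose by 1.96, or 3.89-fold (SD 0.17 and 0.33, exact p = 0.029, adjusted p = 0.043). An exact p of 0.029 is the lowest that 4 against 4 mice can give. Both ratios against Ampd1, given below, reached it as well. The adjusted p of 0.043 depends on that and does not grade the Ckb ratios. The Ckmt2 to Ckm ratio changed by 0.88, or 1.84-fold, but its groups overlapped and it did not pass (SD 0.30 and 0.41, exact p = 0.057, adjusted p = 0.069). With the other Ckb probe the rises were smaller, 2.36 over Ckm and 1.48 over Ckmt2. So Ckb fell less than either muscle form, by an amount that depends on its probe, while a different fall of Ckmt2 and Ckm was not shown. In the last ratio PCKO replicate 3, the mouse with the highest Ckm, stood apart from its group, and without it the change was 1.08.

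**Figure D2:**
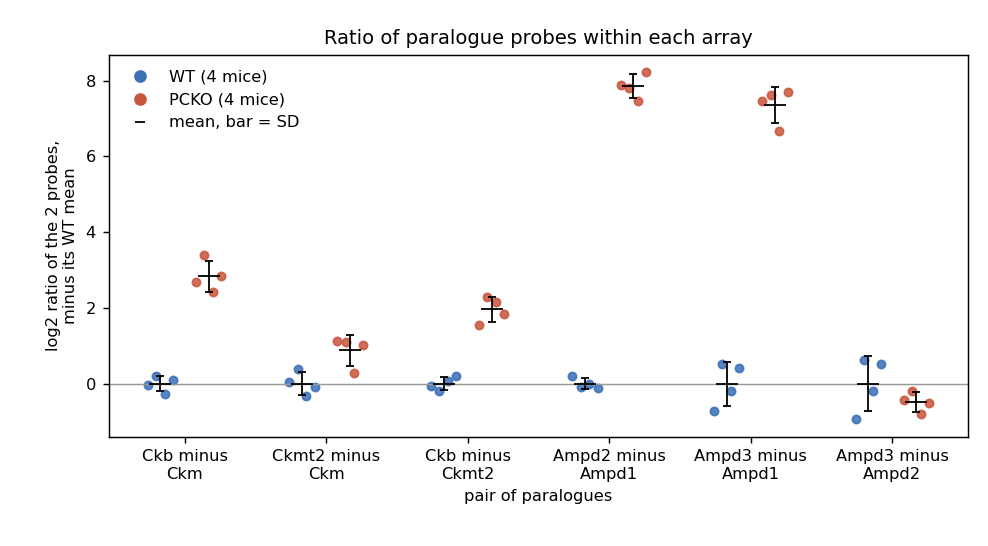
The plot gives, for each pair of paralogues, the log2 ratio of their probes within each array minus its WT mean, with WT mice in blue, PCKO mice in red and black marks for mean and SD of 4 mice. Both ratios against Ampd1 lie above 6 in every PCKO mouse, Ckb over Ckm centres on 2.84, and Ampd3 over Ampd2 overlaps between groups.

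The creatine transporter Slc6a8 fell evenly across mice. WT mice read 6.52, 6.67, 6.62 and 6.67 and PCKO mice 5.51, 5.57, 5.39 and 5.43. The groups were well apart, with SDs of 0.07 and 0.08. The difference was -1.14 ± 0.08 (SE, 95% interval -1.32 to -0.97, adjusted p = 4.5e-06), 2.21-fold lower. With spike-in centring it was -0.46 and did not pass (adjusted p = 0.17), the median of all genes there being 0.73.

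Gamt, guanidinoacetate N-methyltransferase, carries out the last step of creatine synthesis and fell much further than the transporter. Its brighter probe read 3.78, 3.82, 4.15 and 3.22 in WT and 0.74, 0.87, 0.69 and 0.25 in PCKO. The groups did not overlap, and replicate 4 was the lowest mouse of each group. The difference was -3.10 ± 0.21 (SE, 95% interval -3.58 to -2.63, adjusted p = 4.1e-06), 8.60-fold lower, at rank 272 from the lowest. The other Gamt probe gave nearly the same difference, -3.11 ± 0.20 (SE, adjusted p = 2.8e-06).

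The list of other creatine and phosphagen genes held 7 genes, all tested, of which 6 were lower and 1 higher, with a median of -0.59. For this and each list below, the share of all 12739 named genes was 32.1% lower and 37.3% higher. Gatm, which makes the guanidinoacetate that Gamt methylates, fell 2.32-fold (-1.21 ± 0.24, SE, adjusted p = 0.0022). Vdac3, a channel of the outer mitochondrial membrane, fell 1.95-fold (-0.97 ± 0.08, SE, adjusted p = 1.2e-05). Slc25a5, a widely expressed ADP/ATP carrier, was 1.42-fold higher (0.51 ± 0.17, SE, adjusted p = 0.026), with overlapping groups, and did not pass without WT replicates 3 or 4 or without PCKO replicates 1 or 4 (adjusted p from 0.059 to 0.068). The list depended on scaling: 3 genes were lower and 2 higher under quantile normalization (median -0.15), and 0 lower and 1 higher with spike-in centring (median 0.10), where Gatm was at -0.53 (adjusted p = 0.12) and Vdac3 at -0.28 (adjusted p = 0.41). Ckm, Ckmt2 and Gamt stayed lower and called under both, at -2.77, -1.93 and -3.07 under quantile normalization and at -2.56, -1.68 and -2.42 with spike-in centring.

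AMP deaminases held the largest difference of the 10 genes. Ampd1, the skeletal muscle form, read 7.27, 7.32, 7.55 and 7.45 in WT and 0.50, 0.56, 0.74 and 0.08 in PCKO. The 4 PCKO mice lay between 0.08 and 0.74, all at least 6 units below the lowest WT mouse, and the probe was still well above background on all 4 of their arrays. The difference was -6.93 ± 0.14 (SE, 95% interval -7.26 to -6.60, adjusted p = 1.6e-08), 122-fold lower. Only 14 of 12739 genes had a lower difference, which puts Ampd1 at rank 15. Over the alternative settings it ranged from -7.09 to -6.24 and kept its call in 25 of 25.

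Ampd2, the form that predominates in many non-muscle tissues, went the other way at its brighter probe. That probe read 1.26, 1.02, 1.31 and 1.12 in WT and 2.18, 2.16, 1.995 and 2.09 in PCKO, with every PCKO mouse above every WT mouse. The difference was 0.93 ± 0.09 (SE, 95% interval 0.71 to 1.14, adjusted p = 4.3e-05), 1.90-fold higher, at rank 1706 from the highest. Its other probe did not show this: WT mice read -1.54, -1.91, -1.83 and -1.67 and PCKO mice -1.77, -1.81, -2.21 and -1.98. Those groups overlapped, and the difference of -0.21 ± 0.13 (SE, 95% interval -0.50 to 0.09) did not pass (adjusted p = 0.19), so the rise of Ampd2 rests on 1 of its 2 probes. Averaging both probes gave 0.36, still called. The deposited values cover only the dimmer probe.

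Ampd3, the red blood cell form, was dim and spread widely. It read -3.58, -2.26, -2.76 and -2.25 in WT, with 3 of the 4 arrays well above background, and -2.14, -1.92, -2.71 and -2.32 in PCKO, with all 4 so. WT replicate 1 was the lowest mouse and the groups overlapped. The difference of 0.44 ± 0.31 (SE, 95% interval -0.26 to 1.14) did not pass (adjusted p = 0.24), an interval that includes a rise of 2-fold. With spike-in centring it was called at 1.12 (adjusted p = 0.0013), though p-values there follow the size of a difference more than the spread of its probe. With normexp background correction the sign of Ampd3 turned (-0.12, adjusted p = 0.49). Red blood cell markers summed to 1480 to 3280 in WT and 1520 to 2320 in PCKO, with 1 of 6 tested markers lower. Their part in the Ampd3 values was not tested.

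Among paralogues the Ampd2 to Ampd1 ratio, at the brighter Ampd2 probe, rose by 7.85 log2 units, or 231-fold (SD 0.15 in WT and 0.31 in PCKO, n = 4, two-sided exact permutation test, p = 0.029, adjusted p = 0.043). With the other Ampd2 probe it rose by 6.72 (exact permutation test, adjusted p = 0.043). The Ampd3 to Ampd1 ratio rose by 7.37 (SD 0.58 and 0.48, exact p = 0.029, adjusted p = 0.043) and by 6.21 with normexp background correction. No fold is given for it, the Ampd3 probe being well above background on 3 of 4 WT arrays. Beside the difference of -6.93 for Ampd1, those of Ampd2 and Ampd3 were 0.93 and 0.44. Between Ampd3 and Ampd2 the ratio fell by 0.49, with overlapping groups (SD 0.72 and 0.26, exact p = 0.26, adjusted p = 0.26).

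Adsl, adenylosuccinate lyase, releases fumarate and AMP in the purine nucleotide cycle and also acts in de novo purine synthesis. It read 3.26, 3.26, 3.41 and 3.31 in WT and 1.66, 1.84, 1.70 and 1.61 in PCKO. The groups were far apart for their spread (SD 0.07 and 0.10). Adsl was 3.04-fold lower (-1.60 ± 0.08, SE, 95% interval -1.79 to -1.42, adjusted p = 9e-07). Centred on spike-in probes it was still lower, at -0.92 (adjusted p = 0.0056).

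The step before Adsl, adenylosuccinate synthetase, has a muscle form and a widely expressed form, and these moved apart. The muscle form Adssl1 (also Adss1) read 9.52, 9.43, 9.40 and 9.44 in WT and 6.07, 5.93, 6.24 and 5.98 in PCKO. It was 10.5-fold lower (-3.40 ± 0.09, SE, adjusted p = 3.5e-08). The other form, Adss (also Adss2), read 0.67, 0.62, 0.92 and 0.51 in WT and 1.98, 2.10, 2.30 and 2.25 in PCKO, 2.78-fold higher (1.48 ± 0.12, SE, adjusted p = 1e-05). Neither pair of groups overlapped, and both calls held under quantile normalization (-2.91 and 1.48) and spike-in centring (-2.71 and 2.16). The rest of this list handles the fumarate and aspartate that the cycle gives and takes, and of its 7 genes 5 were lower, 1 higher and 1 not called, with a median of -0.50. Mdh2, mitochondrial malate dehydrogenase, fell 1.68-fold (-0.75 ± 0.11, SE, adjusted p = 0.00038), but was at -0.09 under quantile normalization (adjusted p = 0.28) and at -0.07 when centred on spike-in probes (adjusted p = 0.85). Under quantile normalization 1 gene of the list was lower and 2 higher (median -0.10), and with spike-in centring again 1 was lower and 2 higher (median 0.18).

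Ak1, the cytosolic adenylate kinase of muscle, fell next to Ampd1 in size among the 10 genes. WT mice read 9.70, 9.46, 9.43 and 9.48 and PCKO mice 6.13, 5.83, 5.53 and 5.87. No PCKO mouse came within 3 units of a WT mouse. The difference was -3.68 ± 0.13 (SE, 95% interval -3.98 to -3.37, adjusted p = 1.3e-07), 12.8-fold lower, at rank 179 from the lowest. It ranged from -3.77 to -2.99 over 24 alternative settings and was called in each.

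**Figure D3:**
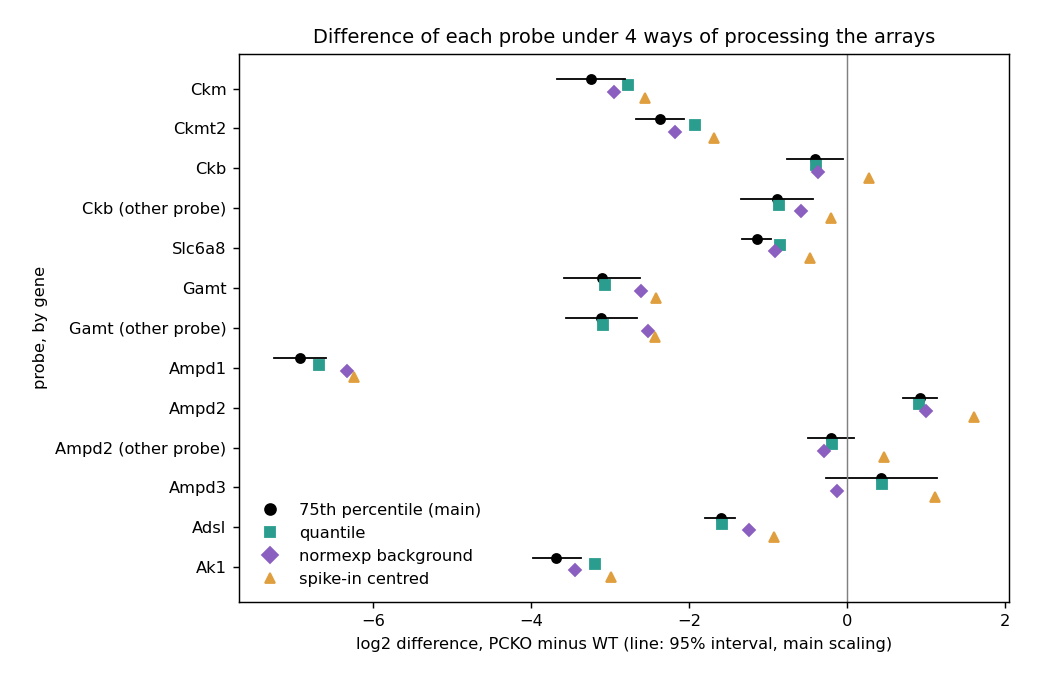
The plot gives the log2 difference, PCKO minus WT, of each of the 13 probes under the main scaling (black, with its 95% interval), quantile normalization, normexp background correction and spike-in centring. Ckm, Ckmt2, Gamt, Ampd1, Adsl and Ak1 stay below 0 and called under all 4, while Ckb moves from -0.41 to 0.28 with spike-in centring and Ampd3 lies on both sides of 0.

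The other nucleotide kinases were mixed. Of 11 genes on that list, 7 could be tested, 3 were lower and 4 higher, with a median of 0.32. That median is the brightest probe of Nme1, a nucleoside diphosphate kinase named here after its values were seen, whose other probe was lower (-0.40 ± 0.13, SE, adjusted p = 0.024). With the mean of each gene's probes the list had 3 lower and 3 higher genes and its median turned to -0.04. Ak4, a mitochondrial matrix form, rose 2.53-fold (1.34 ± 0.27, SE, adjusted p = 0.0023). Guk1, guanylate kinase, rose 1.95-fold (0.96 ± 0.08, SE, adjusted p = 1.2e-05). Ak6, a nuclear form, fell 2.74-fold (-1.45 ± 0.09, SE, adjusted p = 2.4e-06), and Ak3, a mitochondrial form that uses GTP, fell 1.56-fold (-0.64 ± 0.11, SE, adjusted p = 0.001), a call lost with spike-in centring (0.05, adjusted p = 0.91). Under spike-in centring 1 gene of the list was lower and 4 were higher.

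Genes of purine breakdown and salvage were mixed, 5 lower, 9 higher and 4 not called of 18 tested (20 listed), with a median of 0.40. Nt5c, a cytosolic nucleotidase, read 2.37, 2.55, 2.60 and 2.63 in WT and 4.95, 4.93, 4.94 and 4.99 in PCKO. Its rise of 5.33-fold (2.41 ± 0.08, SE, adjusted p = 1.1e-07) left no overlap between the groups. Nt5c3b, another nucleotidase, rose 2.98-fold (1.58 ± 0.08, SE, adjusted p = 1.1e-06). On the other side, Gmpr, which turns GMP back into IMP, fell 3.68-fold (-1.88 ± 0.10, SE, adjusted p = 1.1e-06), and Xdh, xanthine dehydrogenase, fell 1.47-fold (-0.56 ± 0.12, SE, adjusted p = 0.003), with the sign turned under spike-in centring (0.13, adjusted p = 0.73). With spike-in centring the list had 1 lower and 10 higher.

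De novo purine synthesis, the pathway that builds IMP from phosphoribosyl pyrophosphate, had 1 lower, 4 higher and 3 uncalled genes of 8 tested (9 listed), with a median of 0.09. Ppat, its committed step, fell 1.48-fold (-0.57 ± 0.08, SE, adjusted p = 0.00031) and was at 0.11 with spike-in centring (adjusted p = 0.76). The synthetase-associated proteins Prpsap1 and Prpsap2 rose 2.17-fold (1.12 ± 0.10, SE, adjusted p = 1.8e-05) and 1.65-fold (0.72 ± 0.16, SE, adjusted p = 0.0035). Over all 5 lists together 20 genes were lower, 19 higher and 8 not called of 47 tested, with a median of -0.23. Beside this stand 8 lower and 1 higher of the 10 genes, and 32.1% lower and 37.3% higher of all 12739 named genes. Differences among these counts and shares were not tested.

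**Figure D4:**
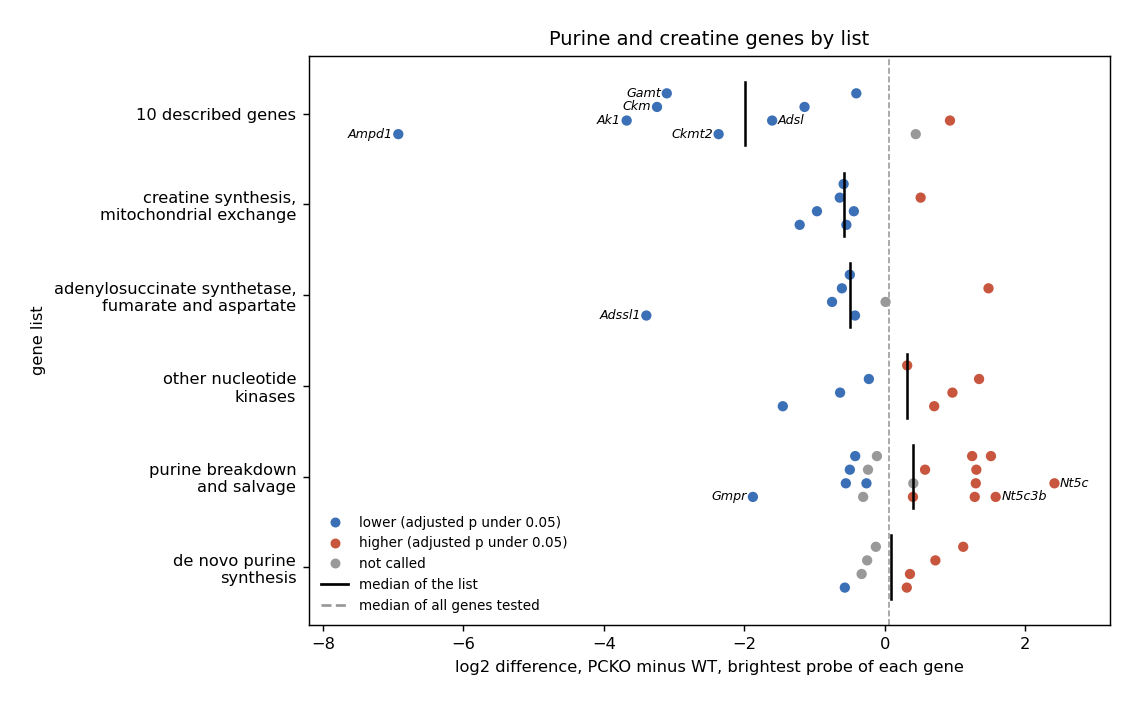
The plot gives the log2 difference, PCKO minus WT, of each tested gene at its brightest probe, by list, in blue where lower, red where higher and grey where not called, with a black line at each list's median and a dashed line at the median of all genes tested. The 10 described genes have their median at -1.99, the other 5 lists have theirs between -0.59 and 0.40, and Adssl1 lies far to the left of its list. With spike-in centring the medians of the list of creatine genes and of the list with Adssl1 turned positive (0.10 and 0.18).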

How the data were processed

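Each of the 8 arrays, 4 WT and 4 PCKO, was 1 mouse. The scanner files hold spot intensity values which, per the file headers, Feature Extraction (version 10.7.3.1) wrote with background subtracted and a spatial trend taken out array by array and nothing scaled between arrays. The series table the authors deposited is on a log2 scale. How it was made is not stated, and it served as an alternative only.

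Processed intensities were put on a log2 scale and set against the 75th percentile of all non-control probes of their array, leaving out spots marked as non-uniform or outlying and averaging spots of 1 probe. Probes well above background on at least 4 of 8 arrays were tested (24872), by lmFit and eBayes of limma 3.58.1 (R 4.3.3), two-sided and with the group as sole term, and Benjamini-Hochberg adjustment over all of them. The number of arrays limits the precision. Probes were named by matching transcript accessions, without versions, to RefSeq genes of GRCm38.p6: 26582 matched 1 symbol and 29099 none. Adss1 and Adss2 were matched through synonyms. Since the design's own annotation is of an earlier build, gene coordinates are left out. Probe sequences were not used, so signal from related transcripts on 1 probe cannot be told apart. A gene was taken at its brightest tested probe. Paralogue ratios were tested with an exact permutation test.

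The genes and lists were chosen with earlier results of these data known. Beyond the 10 genes and the targeted genes, each list's 2 called genes per direction with the largest difference were named. Alternatives covered scaling (quantile, median, spike-in and detected-probe percentile), normexp background correction with an offset of 50, filters on dim probes, outlier spots, gene summaries, variance models, the deposited table, slide rows, a replicate block and leaving out each mouse. The detected-probe percentile, the other probe of Ckb or Ampd2 in ratios and quantile-normalized ratios were chosen after seeing the data. 1 marker of the red blood cell list is not reported here. The fitting code was tested on simulated data.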

Additional observations from a re-analysis of the deposited data

Results flagged for a closer look

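In the log2 ratio of the Ckmt2 probe to the Ckm probe, PCKO replicate 3 stood apart from the other PCKO mice, at -0.13 against 0.62 to 0.74. Its gap to the nearest mouse was 0.856 of the group's whole range, above Dixon's critical value for 4 samples. It was the only one of 76 groups of 4 past that value, where chance alone passes about 1 in 20. The same mouse had the highest Ckm level of its group (6.47 against 5.67 to 5.82) and a Ckmt2 level inside its group's range (6.34). The zero of this ratio has no meaning, since levels of different probes are not comparable.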

How the results depend on the processing

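Ampd1, Ckm, Ckmt2, Ak1, both Gamt probes, Adsl and the brighter Ampd2 probe kept direction and call in every alternative that measured them, with ranges of -7.09 to -6.24, -3.42 to -2.56, -2.47 to -1.68, -3.77 to -2.99, -3.33 to -2.42, -1.71 to -0.92 and 0.82 to 1.61 (0.36, still called, as the mean of both Ampd2 probes). Slc6a8 lost its call only with spike-in centring. Signs turned for Ckb (0.28), the other Ampd2 probe (0.48), Ak3 (0.045), Xdh (0.13) and Ppat (0.11) with spike-in centring, and for Ampd3 with normexp (-0.12) and in slide row 2 alone (-0.011). The Ampd3 to Ampd2 ratio was 0.64 with the other Ampd2 probe and passed at -1.12 with normexp (adjusted p = 0.034). Of the 10 genes, 2 were higher with spike-in centring, and 0 higher and 5 lower in the deposited table, which held 6 of them. Ckm, Ckmt2, Ak1 and Ampd3 were not in that table, so their values were not compared with it. Leaving out each mouse gave 7 to 8 lower and 1 higher of the 10 genes, 17 to 19 lower and 16 to 18 higher of the other pathway genes, and 7331 to 7567 lower and 7699 to 8226 higher of all probes. The 20 lower genes of the other lists became 10 with quantile normalization, 3 with spike-in centring, 11 with normexp, 9 in the deposited table, and 11 and 9 in slide rows 1 and 2 alone. All probes gave 2393 lower and 12969 higher with spike-in centring and 4023 and 5371 in the deposited table, which holds fewer probes. Slide rows 1 and 2 alone, with 2 mice a group, gave 5482 and 5266 higher. For the 17 other named genes, 400 of 420 values kept direction and call, 17 lost the call and 3 reversed. Around their group means, same-numbered WT and PCKO mice correlated weakly, at 0.02 to 0.09, and 3 of 4 WT mice correlated best with their own number. Whether replicate numbers pair the mice was not tested. The replicate block left 7 of the 10 genes lower and 1 higher, Ckb being at an adjusted p of 0.051 and Slc25a5 at 0.055 by limma. Signal limits Ampd3, whose probe was not well above background on 1 WT array. The cause of each change above was not tested.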

Other observations

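Beyond the genes named by rule, single genes that act on IMP and GMP were picked after their values were seen. They were not tested as a group. Impdh1, which oxidises IMP to XMP, rose 2.47-fold (1.30 ± 0.11, SE, adjusted p = 1.2e-05), and Gmps, which makes GMP from XMP, rose 2.43-fold (1.28 ± 0.11, SE, adjusted p = 1.4e-05). The other Gmps probes rose less, by 1.02 ± 0.22 and 0.63 ± 0.16 (SE, adjusted p = 0.0035 and 0.0084). Hprt, which recovers IMP and GMP from free bases, rose 2.85-fold (1.51 ± 0.11, SE, adjusted p = 5.7e-06). Of the GMP reductases, which turn GMP back into IMP, Gmpr2 rose 2.37-fold (1.24 ± 0.09, SE, adjusted p = 5.9e-06) while Gmpr fell 3.68-fold (-1.88 ± 0.10, SE, adjusted p = 1.1e-06). Over 25 alternative settings Impdh1 lay between 1.20 and 1.98, Gmps between 0.97 and 1.96, Hprt between 1.36 and 2.19 and Gmpr2 between 0.81 and 1.93, all called, and Gmpr lay between -1.94 and -1.20 over the 24 that measured it. Nt5c2, a nucleotidase that acts on IMP and GMP, rose 2.45-fold (1.29 ± 0.12, SE, adjusted p = 2.6e-05), with a range of 0.65 to 1.98 over 25 settings and a call in each. The other Nt5c2 probe rose less, 1.88-fold (0.91 ± 0.15, SE, adjusted p = 0.00085). Impdh2 was weaker, 1.32-fold higher (0.40 ± 0.13, SE, adjusted p = 0.028) with overlapping groups, and was not called in 8 of 24 settings. The other Impdh2 probe rose more, 1.48-fold (0.56 ± 0.16, SE, adjusted p = 0.013), also with overlapping groups. All p-values here are from limma with Benjamini-Hochberg adjustment over all tested probes.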
